A study of Rattus norvegicus with 9 samples.

Results

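Adrb1 and Adrb3 encode the β1- and β3-adrenoceptors, and both were followed here across 9 arrays of rat bladder RNA. All non-control probes whose accession maps to these genes were taken, which gave 1 probe for Adrb1 (A_64_P130105, accession NM_012701) and 1 probe for Adrb3 (A_64_P150549, accession NM_013108), each printed as 1 spot. They are 2 of the 15168 genes named on the array. The 9 one-colour arrays carried total RNA from bladders of female rats, 3 per group at 3 weeks. The groups were sham operation, in which the urethra was not tied, partial bladder outlet obstruction (pBOO), in which the proximal urethra was ligated around a catheter, and the same obstruction with tolterodine, which blocks muscarinic receptors. All animals of the third group were therefore obstructed as well, and no sham group with tolterodine is among the titles. No label read here gives the strain, the age or the dose of tolterodine. The labels state that 5 specimens per group were examined and do not say whether bladders were pooled before labelling; a p-value here therefore reflects only how far these arrays spread.

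The labels disagree on which arrays are obstructed. The treatment protocol gives the letter S to obstruction and C to sham, whereas the arrays titled sham have sample codes with S and those titled pBOO have codes with C. The titles were followed throughout, and "pBOO" and "sham" below mean the arrays with those titles. If the letters were right, every pBOO minus sham change below would turn its sign, and what is given as tolterodine against sham would be tolterodine against obstruction alone.

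β-adrenoceptors are receptors for noradrenaline and adrenaline, which sympathetic nerves and the adrenal medulla release. They couple through the stimulatory G protein to adenylyl cyclase, and the cyclic AMP they raise acts mainly through protein kinase A. In the detrusor, the smooth muscle of the bladder wall, this pathway relaxes the muscle during filling, opposite to the contraction that muscarinic receptors drive during voiding. The β3 subtype is the target of agonists used for overactive bladder, and it is also abundant in fat.

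Levels are log2 processed signals relative to the 75th percentile of each array, so a level of 0 is that percentile and a difference of 1 is a doubling. A spot was called well above background by the scanner software. Both probes were well above background on all 9 arrays, carried no quality mark and were tested. The lowest level that any spot well above background had lay between -6.29 and -5.54, depending on the array. The uroplakins Upk1a, Upk1b, Upk2 and Upk3a of the urothelium and the muscle genes Acta2, Actg2, Des and Tagln were well above background on all 9 arrays, and they mark mucosa and muscle of the bladder wall.

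The mean level of Adrb3 was highest in pBOO, lower in sham and lowest with tolterodine, and the last of these steps did not pass the test. In sham the level was -5.27, -2.25 and -2.60 on arrays 1, 2 and 3, a mean of -3.37 ± 1.66 (SD, n = 3). In pBOO it was -0.45, -1.17 and -0.70, a mean of -0.78 ± 0.37 (SD, n = 3). With tolterodine it was -4.88, -4.63 and -4.73, a mean of -4.75 ± 0.12 (SD, n = 3). All 3 pBOO arrays lay above all 6 others. The tolterodine arrays were close to each other, and sham array 1 lay below all of them while sham arrays 2 and 3 lay above.

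The deposited processed intensities show how near to the floor some of these values were. They were 458 to 1054 in pBOO, 19.7 to 43.4 with tolterodine, and 19.5, 173 and 96.9 on sham arrays 1, 2 and 3. The scanner software's own error for the spot was 13.1% to 20.3% of the signal on sham array 1 and the tolterodine arrays. The pBOO arrays were 4.67 to 5.72 log2 units above the lowest level detected on their array. The tolterodine arrays were 0.66 to 1.56 units above it and sham array 1 was 0.37 units above it, so these 4 readings were weak signals that depend on the background subtraction.

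The Adrb3 change between pBOO and sham was 2.60 (SE 0.67), 6.05-fold higher in pBOO, with an adjusted p of 0.0142 (limma, Benjamini-Hochberg over 20476 probes), and the groups did not overlap. Of all probes tested, 40.9% passed the threshold of 0.05 in this comparison (20.1% higher and 20.8% lower in pBOO), so passing it is common here; 1.57% had a change at least as large in either direction, and 54.8% had groups that did not overlap. The change was 1.65 (SE 0.22, adjusted p = 0.000912, limma) without sham array 1, which is 3.13-fold. It was 1.70 (adjusted p = 0.00414, limma) with a model-based background correction (normexp) of the raw signals. Array slides were told apart by the scan time and array position in the file headers. The 3 pBOO arrays and sham array 1 shared slide 2, while sham arrays 2 and 3 lay on slide 1. Within slide 2 the change was 4.50, which sets the 3 pBOO arrays against sham array 1 alone. The fit with slide as a fixed block gave the same 4.50, since for pBOO it is that same contrast, so neither value adds support beyond that single sham array. The change stayed positive in all of these, with a size that ran from 1.65 without sham array 1 to 4.50 against it alone.

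Between pBOO with tolterodine and pBOO alone, Adrb3 fell by 3.97 on the log2 scale (SE 0.67), 15.7-fold, with an adjusted p of 0.00217 (limma, Benjamini-Hochberg). The groups did not overlap. In this comparison 38.6% of probes passed (25.4% higher and 13.2% lower with tolterodine), 57.7% had groups that did not overlap, and 0.464%, or 95 probes, had a change of at least this size. With each array left out in turn it ran from -4.17 to -3.81. It was -2.50 (adjusted p = 0.000418, limma) with the normexp correction and -6.83 with slide as a fixed block. No slide held arrays of both groups, so there is no within-slide value, and the blocked value links them through the sham arrays, of which slide 2 holds array 1 alone.

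Between tolterodine and sham, the change in Adrb3 was -1.37 (SE 0.67, 95% interval -2.88 to 0.14, adjusted p = 0.165, limma) and did not pass. In this comparison 23.9% of probes passed (18.2% higher and 5.72% lower with tolterodine), and 42.3% had groups that did not overlap. The call turned on sham array 1. Without it the change was -2.32 (SE 0.22, adjusted p = 0.00037, limma). Within slide 1, which held tolterodine arrays 1 and 2 and sham arrays 2 and 3, the change was -2.33 (adjusted p = 0.00273, limma). The fit with slide as a fixed block gave the same -2.33 (adjusted p = 0.00135, limma), since for this comparison it is that same contrast. Both leave out sham array 1 and tolterodine array 3, so the blocked value adds no support. With slide as a random block the change was -1.87 (adjusted p = 0.0147, limma).

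An exact permutation test on Adrb3 over the 3 groups together, on the ratio of the spread between to the spread within groups, gave p = 0.0143, where 0.00357 is the smallest it can give. This test was added after the data were seen.

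**Figure D1:**
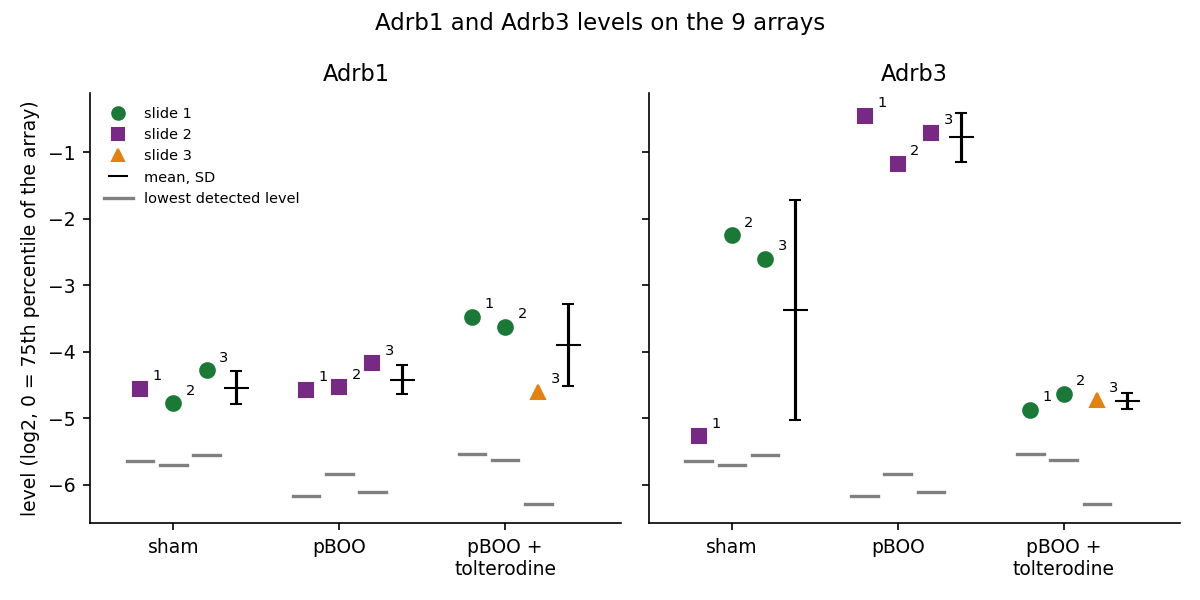
Level of Adrb1 (left) and Adrb3 (right) on each array, as log2 of the processed signal relative to the 75th percentile of that array, by group; the digit beside a point is the replicate, colour and shape mark the slide, black bars are the mean and SD of the 3 arrays, and grey dashes mark the lowest level well above background on that array. Adrb3 in pBOO (-1.17 to -0.45) lies above every other array and sham array 1 (-5.27) lies far below sham arrays 2 and 3, while the Adrb1 levels of the groups overlap.

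Adrb1 was dim in every group and no comparison passed. In sham the level was -4.56, -4.78 and -4.28, a mean of -4.54 ± 0.25 (SD, n = 3). In pBOO it was -4.57, -4.53 and -4.17, a mean of -4.43 ± 0.22 (SD, n = 3). With tolterodine it was -3.47, -3.63 and -4.60, a mean of -3.90 ± 0.61 (SD, n = 3). Sham and pBOO overlapped, tolterodine arrays 1 and 2 were the highest of the 9, and tolterodine array 3 lay among the sham arrays. The processed intensity was between 21.5 and 87.2 on the 9 arrays, and the level was 0.92 to 2.07 units above the lowest level detected on the same array.

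The Adrb1 change between pBOO and sham was 0.11 (SE 0.29, 95% interval -0.54 to 0.76, adjusted p = 0.775, limma). Its sign was not stable: it was -0.04 with quantile scaling and -0.13 with the normexp correction, and -0.012 without pBOO array 3 and -0.0060 without sham array 2. With tolterodine, the change was 0.53 (SE 0.29, adjusted p = 0.175, limma) against pBOO and 0.64 (SE 0.29, 95% interval -0.01 to 1.29, adjusted p = 0.137, limma) against sham. Tolterodine array 3, alone on slide 3 and the array with the lowest 75th percentile (523 intensity units), decided these calls. Without it the change was 0.88 (adjusted p = 0.0108, limma) against pBOO and 0.99 (adjusted p = 0.0114, limma) against sham. Within slide 1 the change against sham was 0.98 (adjusted p = 0.0163, limma), or 1.98-fold. With slide as a fixed block it was the same 0.98 (adjusted p = 0.0121, limma), since that is the same contrast. Both leave out tolterodine array 3, so the blocked value adds no support. With slide as a random block the change against sham was 0.82 (adjusted p = 0.0229, limma). Against pBOO, 0.85 (adjusted p = 0.0801, limma) with slide as a fixed block did not pass. The exact permutation test over the 3 groups gave p = 0.2 for Adrb1.

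The receptors therefore differed in which samples were high. Subtracting the Adrb1 level from the Adrb3 level on each array gives a quantity that does not depend on the scaling of the array; its zero has no meaning, since the probes differ, but its change between groups does. It was 2.48 higher in pBOO than in sham, -4.50 with tolterodine against pBOO and -2.01 with tolterodine against sham. The exact two-sided permutation p was 0.1, 0.1 and 0.2 in turn, and 0.1 is the smallest that 3 arrays against 3 can give. Over the 3 groups together the exact permutation p was 0.00714. The groups did not overlap in the first and second of these comparisons. The tolterodine arrays and sham array 1 overlapped in the third.

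**Figure D2:**
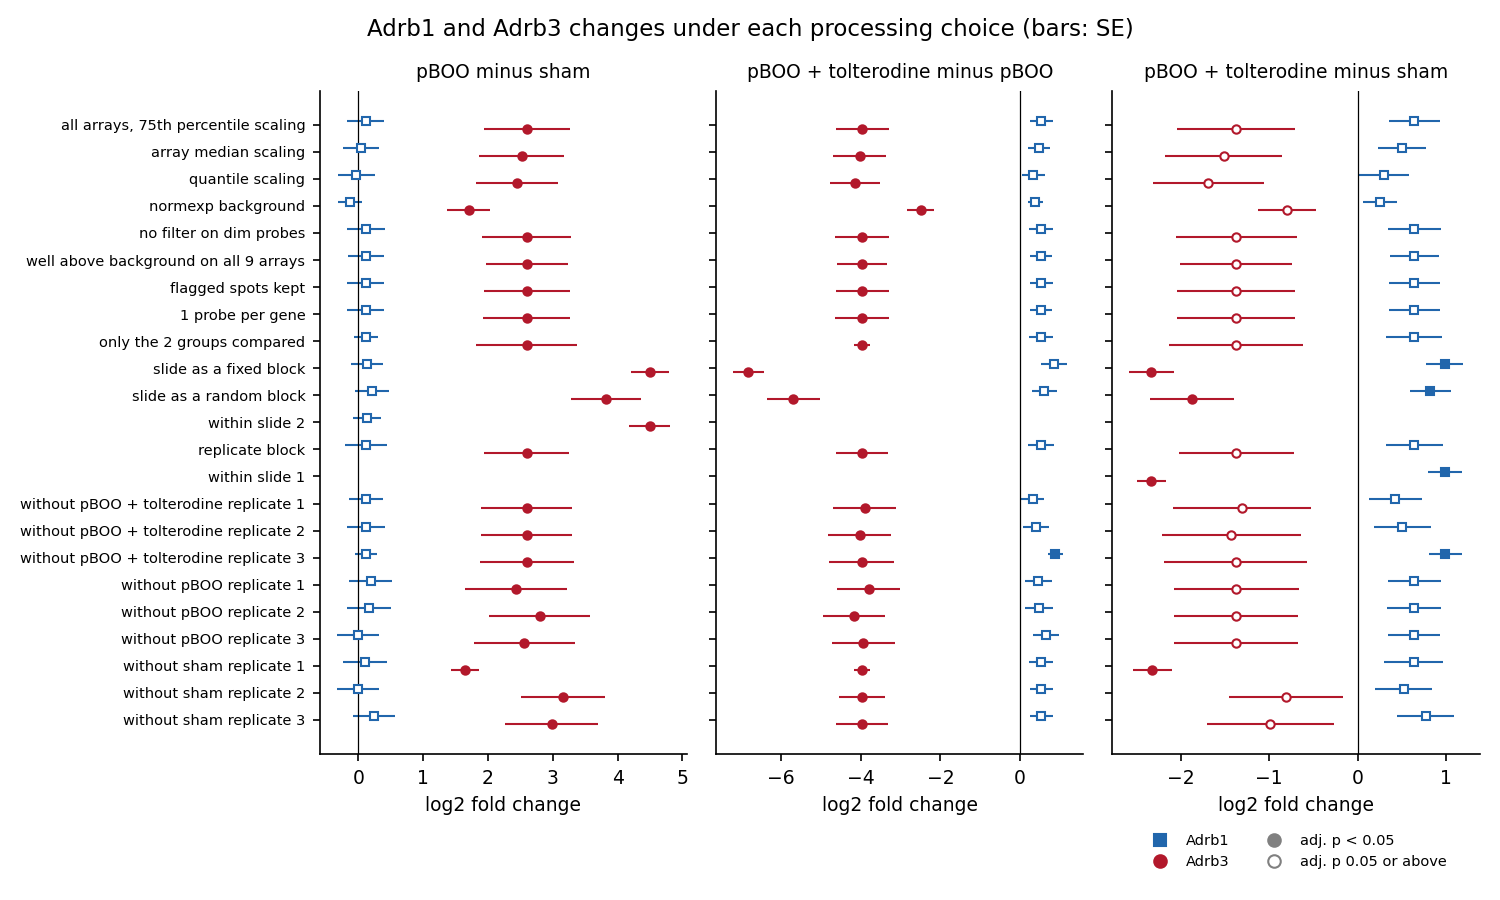
Change in Adrb1 (blue squares) and Adrb3 (red circles) as log2 fold change with its SE, in each comparison (panels) and under each processing choice (vertical axis); filled symbols passed the threshold of 0.05 after adjustment. Adrb3 stays right of 0 for pBOO minus sham and left of 0 for tolterodine against pBOO in every setting drawn (the exchange of names is not drawn), with sizes that shift with slide, background correction and sham array 1. The filters, flagged spots kept, 1 probe per gene, only the groups compared and the replicate block could not move these changes.

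Sham array 1 stood apart from the other sham arrays for Adrb3 far more than for most probes. Its Adrb3 level was 2.85 below the mean of sham arrays 2 and 3, a gap larger in size than that of 99.5% of 19604 probes, whose median gap was 0.31. For Adrb1 the same gap was -0.03. Across the 9 arrays the levels of other genes moved with Adrb3 in the same way. The 5 genes whose levels over the 9 arrays had the highest Pearson r with Adrb3, among 10105 genes with a value on every array, were Nrn1l (0.997), Ngb (0.993), Flrt3 (0.992), Plppr3 (0.990) and Asic4 (0.990), and 326 genes had an r above 0.9. These correlations describe 9 arrays in 3 groups that share slides and scaling, and they carry no test. Ngb encodes neuroglobin, an oxygen-binding protein of neurons, and its level was -5.02, -1.30 and -1.65 in sham, 0.10, -0.29 and -0.05 in pBOO, and -4.10, -4.07 and -3.79 with tolterodine. Asic4 encodes a member of the acid-sensing ion channel family, and its level was -5.64, -1.84 and -2.28 in sham, -0.60, -1.32 and -0.93 in pBOO, and -4.79, -5.12 and -4.81 with tolterodine. Both were low on sham array 1 and on all 3 tolterodine arrays, as Adrb3 was. Nrn1l and Plppr3 were not well above background on any tolterodine array, so they were at least 6.46-fold and 8.05-fold lower with tolterodine than in pBOO. Each such bound sets the pBOO mean against, on each tolterodine array, the higher of the probe's own level and the lowest level detected there. Flrt3, which encodes a cell adhesion protein, was also lowest on sham array 1 and highest on the 3 pBOO arrays, over a range of only -0.43 to 0.73.

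Some genes of several marker lists followed part of this pattern, among them the nerve genes Stmn2 and Prph. Of 9 nerve markers 4 were tested, 1 was lost to marked spots, and Elavl4, Snap25, Syn1 and Chga were too dim to test. Stmn2, a microtubule regulator of growing neurons, had levels of -4.97, -0.06 and -0.48 in sham, 0.00, 0.97 and 0.57 in pBOO, and -4.11, -4.58 and -4.38 with tolterodine. Prph, the neuronal intermediate filament peripherin, had levels of -4.65, -1.93 and -2.32 in sham, -1.47, -1.38 and -1.41 in pBOO, and -3.62, -3.30 and -3.83 with tolterodine. Both were low on the 4 arrays on which Adrb3 was low. Stmn2 was lower with tolterodine than in pBOO, with a change of -4.87 (adjusted p = 0.00807, limma), and Prph had a change of -2.16 (adjusted p = 0.0192, limma). Gap43, a growth cone protein, had a change of -0.87 (adjusted p = 0.000753, limma) in the same comparison. Tubb3, the neuronal β-tubulin, went the other way at 2.08 (adjusted p = 0.000334, limma). Among the sham arrays it was highest on array 1, at -0.33 against -1.18 and -0.78. Of the 4 tested nerve markers, 1 rose and 1 fell between sham and pBOO, beside 20.3% and 20.9% of all genes. With tolterodine against pBOO 1 rose and 3 fell, beside 24.9% and 14.7% of all genes. The summed level of the 4 nerve genes, as log2 of the sum, was 0.95 to 1.52 in pBOO, 0.09 to 0.92 in sham and -0.14 to 0.17 with tolterodine. Krt20, a keratin of the surface cells of the urothelium, had levels of -1.94, 1.31 and 1.05 in sham, 0.26, 1.49 and 1.05 in pBOO, and -4.02, -4.32 and -3.77 with tolterodine. It did not pass between pBOO and sham (0.80, adjusted p = 0.429, limma) and was 31.5-fold lower with tolterodine than in pBOO (adjusted p = 0.00132, limma). Of 9 tested urothelium markers, 0 rose and 5 fell between sham and pBOO, and 4 rose and 1 fell with tolterodine against pBOO. Passing was common over all genes tested, so small counts in this and the lists below say little. Of all genes, 20.3% rose and 20.9% fell between sham and pBOO, and 24.9% rose and 14.7% fell with tolterodine against pBOO. The summed level of the 5 with a value on every array was 4.47 to 4.76 in sham, 3.52 to 4.53 in pBOO and 3.69 to 3.78 with tolterodine. Tnnt3, a troponin of skeletal muscle, had levels of -2.74, -0.41 and -0.74 in sham, 0.66, 0.28 and 0.47 in pBOO, and -1.89, -2.003 and -1.54 with tolterodine. Of 5 tested skeletal muscle markers, 3 rose and 0 fell between sham and pBOO, and 1 rose and 4 fell with tolterodine against pBOO. Their summed level was 2.52 to 2.93 in pBOO, 1.17 to 1.99 in sham and 1.15 to 1.95 with tolterodine, and Myh1 and Myh4 were too dim to test. Krt20 and Tnnt3 were thus low on sham array 1 and on the tolterodine arrays too. Krt20 does not stand for its list, most of whose called genes changed in the other direction. Krt5, another urothelium marker, was highest on sham array 1, at 3.26 against 2.35 and 2.66. Its mean level was lower in pBOO (0.78) than with tolterodine (1.75). Endothelium markers (4 of 7) and fibroblast markers (4 of 7) rose between sham and pBOO, with 0 falling in either list, and with tolterodine against pBOO 3 endothelium markers fell and 1 rose, and 2 fibroblast markers fell and 1 rose. The part of nerve, urothelium, skeletal muscle, endothelium and fibroblasts in the Adrb3 difference was not tested. In whole bladder RNA, fewer cells of a type and less RNA per cell cannot be told apart.

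Fat is another tissue that expresses Adrb3. Adipoq, the fat cell hormone adiponectin, had levels of -5.08, 2.06 and 1.64 in sham, -4.86, -8.13 and -6.47 in pBOO, and -2.15, -1.54 and -4.48 with tolterodine. It was highest on sham arrays 2 and 3, and it was well above background on only 1 of the 3 pBOO arrays, those where Adrb3 was highest. Lipe, the hormone-sensitive lipase, went the other way, with mean levels of -5.27 in sham, -4.50 in pBOO and -5.24 with tolterodine. Of 10 adipocyte markers 4 were tested, of which 1 rose and 2 fell between sham and pBOO, and 0 rose and 1 fell with tolterodine against pBOO. Over all genes tested 20.3% rose and 20.9% fell in the first of these comparisons, and 24.9% rose and 14.7% fell in the second. Ucp1, Lep, Cidec and Pck1 were too dim to test. The summed level of the 4 tested was 2.82 to 3.17 in pBOO, below the 3.27 to 4.45 of sham and the 3.22 to 3.25 of tolterodine. Within sham, Adipoq was lowest on array 1, as Adrb3 was. The mean level of the 4 tested was -1.78 on sham array 1, against 0.76 and 0.63 on sham arrays 2 and 3.

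Most tested smooth muscle genes were higher in pBOO in the same comparisons as Adrb3. Of 12 smooth muscle markers 8 were tested, and Des, Tagln and Actg2 were lost to marked spots. Of the 8 tested, 7 rose between sham and pBOO and 0 fell, with a median change of 2.52. With tolterodine against pBOO 0 rose and 7 fell, with a median of -1.79. Over all 11049 genes tested, 41.2% passed in the first comparison and 39.6% in the second, with median changes of -0.04 and 0.11. The median of 2.52 leaves out the bright markers lost to marked spots. With marked spots kept, Des ran from 5.59 to 6.28 and Tagln from 5.18 to 6.42 over all arrays. The Actg2 probes ran from 6.61 to 7.42 and from 6.97 to 7.89. Mylk, the myosin light chain kinase of smooth muscle, had levels of -2.24, -2.25 and -2.11 in sham, 0.68, 0.41 and 0.59 in pBOO, and -1.27, -1.26 and -1.37 with tolterodine, so that sham array 1 lay with the other sham arrays for this gene. For Myh11, the smooth muscle myosin heavy chain, sham array 1 was the lowest, at -0.16 against 1.53 and 1.33, and the mean level of the 6 markers with a value on every array was -0.93 on sham array 1 against -0.34 and -0.43. The summed level of these 6 was 5.85 to 6.23 in sham, 6.53 to 6.72 in pBOO and 5.91 to 6.58 with tolterodine. For Mylk, Myh11 and Smtn a dimmer probe was used, since a brighter probe of each had no unmarked value in pBOO. The brighter Mylk probe had mean levels of 4.37 in sham and 4.65 with tolterodine. The brighter Myh11 probe had 3.38 and 4.40. Markers of neutrophils moved against Adrb3. Of 5 tested, 4 fell between sham and pBOO and 5 rose with tolterodine against pBOO. S100a9, a calcium-binding protein of neutrophils, had levels of 0.45, -0.25 and -0.02 in sham, -3.65, -3.37 and -3.35 in pBOO, and 1.14, 1.29 and 0.94 with tolterodine. Of 9 macrophage markers, 7 fell between sham and pBOO and 8 rose with tolterodine against pBOO. The part of fat, smooth muscle and these white cells in the Adrb3 changes was not tested.

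**Figure D3:**
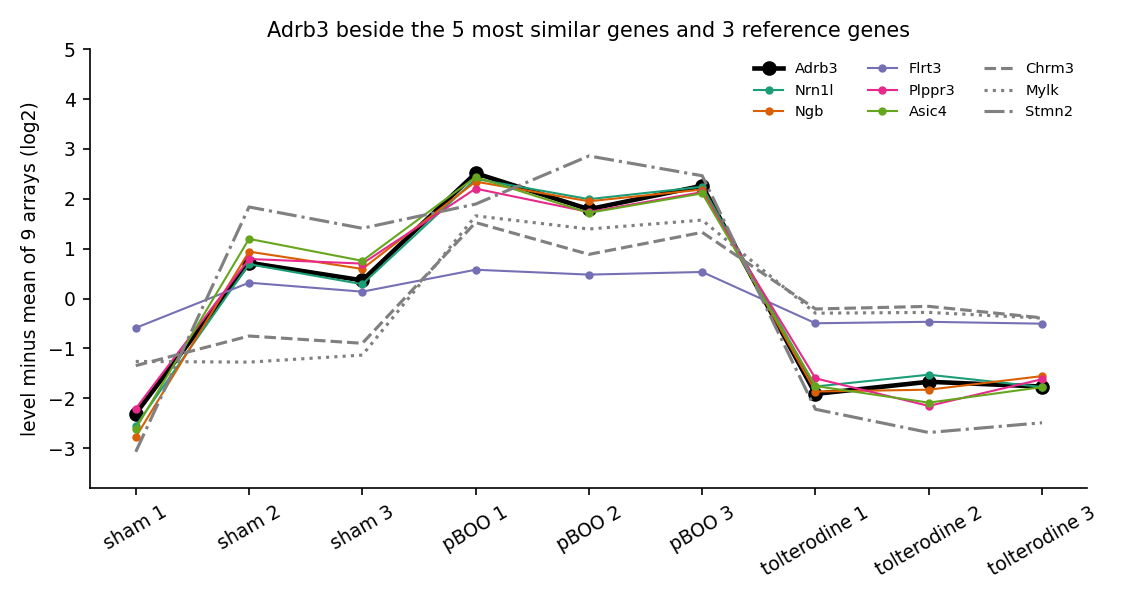
Levels of Adrb3 (black), of the 5 genes with the most similar pattern (coloured) and of Chrm3, Mylk and Stmn2 (grey), each as log2 level minus its own mean over the 9 arrays, plotted by array. Adrb3, its 5 nearest genes and Stmn2 are low on sham array 1 and on the tolterodine arrays, whereas Chrm3 and Mylk are low on all 3 sham arrays.

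No gene moved with Adrb1 as closely as those did with Adrb3. The 5 highest r over the 9 arrays were those of Prl5a2 (0.948), Trmt10c (0.943), Zfyve1 (0.942), Dgcr2 (0.939) and Krtap10-10l1 (0.928), and 16 genes had an r above 0.9. Prl5a2 was well above background on all 3 tolterodine arrays but on 0 of 3 sham and 0 of 3 pBOO arrays. It was thus kept only through the tolterodine arrays, and its r rests largely on levels near the floor. Zfyve1, for example, had levels of -0.84, -0.83 and -1.36 with tolterodine, with array 3 below the others as for Adrb1. The r between Adrb1 and Adrb3 was -0.39 over the 9 arrays, again as a description.

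The genes that carry the receptor signal were read from lists of 38 genes of receptor coupling, cyclic AMP and its targets and 9 genes of catecholamine supply. Of these, 30 and 7 were tested. Between pBOO and sham, 15 of the 37 rose and 5 fell, with a median change of 0.18. Over all genes tested 20.3% rose and 20.9% fell in this comparison. With tolterodine against pBOO 7 rose and 8 fell, with a median of -0.09, beside 24.9% and 14.7% of all genes. With tolterodine against sham 10 rose and 0 fell, with a median of 0.25, beside 17.2% and 6.13% of all genes (23.3% in either direction) and a median over all genes of 0.09. The split of calls depends on the scaling: of the probes called between tolterodine and sham 76.1% were higher with tolterodine, against 54.9% when arrays were scaled to their median. For tolterodine against pBOO it was 65.8%, against 54.2% with quantile scaling. Of the probes called between pBOO and sham 49.1% were higher in pBOO, against 36.2% with the normexp correction. The count of 10 fell to 6 with median scaling and to 3 with normexp, to 5 without tolterodine array 1, and to 6 without tolterodine array 2, sham array 2 or sham array 3. Median scaling moved the median change of all probes for tolterodine against sham from 0.12 to -0.02, and on that scale Adrb3 changed by -1.51 and Adrb1 by 0.50, neither of which passed. Without sham array 1, 14 rose and 3 fell between sham and pBOO.

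Of the coupling proteins, Gnas, the stimulatory G protein α subunit, had a change of -0.03 (SE 0.27, 95% interval -0.65 to 0.59, adjusted p = 0.942, limma) between pBOO and sham and of 0.15 (adjusted p = 0.693, limma) with tolterodine against pBOO. These values rest on 1 probe, with mean levels of -3.56 in sham, -3.59 in pBOO and -3.45 with tolterodine. A second Gnas probe was well above background on every array, but all its spots were marked and it was not tested. Gnai1, an inhibitory α subunit, had levels of -3.28, -3.57 and -3.47 in sham, -1.69, -1.69 and -1.74 in pBOO, and -2.95, -2.66 and -3.28 with tolterodine. It rose by 1.74 in pBOO and fell by 1.26 with tolterodine against pBOO, and the groups overlapped in neither comparison.

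Grk2 and Arrb2, which act on the activated receptor, changed opposite to Adrb3 between pBOO and sham and with tolterodine against pBOO. Grk2 encodes a kinase that phosphorylates active receptors, and its level was -0.35, -0.57 and -0.55 in sham, -1.35, -1.12 and -1.17 in pBOO, and -0.65, -0.73 and -0.73 with tolterodine. It was lower in pBOO than in sham, with a change of -0.73 (SE 0.12, adjusted p = 0.00178, limma), and rose by 0.51 (SE 0.12, adjusted p = 0.0102, limma) with tolterodine against pBOO. With tolterodine against sham its change of -0.22 (adjusted p = 0.217, limma) did not pass and had the sign of the Adrb3 change. Arrb2 encodes the arrestin that binds phosphorylated receptors, β-arrestin 2, and its level was 0.92, 0.84 and 0.82 in sham, 0.37, 0.23 and 0.36 in pBOO, and 1.34, 1.27 and 1.68 with tolterodine. Its change was -0.54 (SE 0.13, adjusted p = 0.0123, limma) between pBOO and sham, 1.11 (adjusted p = 0.000376, limma) with tolterodine against pBOO and 0.57 (adjusted p = 0.0164, limma) against sham. Arrb1, the other β-arrestin, did not pass between pBOO and sham at 0.16 (adjusted p = 0.441, limma). It rose by 0.75 (adjusted p = 0.00534, limma) with tolterodine against pBOO and by 0.90 (adjusted p = 0.00438, limma) against sham. For Grk2 and Arrb2 no pair of groups overlapped, and sham array 1 lay with the other sham arrays for both.

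Of the kinase and its partners, Prkaca is the α catalytic subunit of protein kinase A. Its brightest probe did not pass in any comparison, with changes of 0.18, -0.28 and -0.10. A dimmer Prkaca probe had mean levels of -3.54 in sham, -2.74 in pBOO and -2.37 with tolterodine. The probes of this gene thus disagreed on the direction with tolterodine, against both pBOO and sham. Prkacb, the β catalytic subunit, was -4.55, -5.94 and -5.56 in sham, -2.81, -2.71 and -2.70 in pBOO, and -3.57, -3.52 and -3.32 with tolterodine. It was 2.61 higher in pBOO than in sham (SE 0.30, adjusted p = 0.000308, limma), but it was well above background on only 1 of 3 sham arrays. Rgs2, which limits signalling through Gq-coupled receptors, rose by 2.26 in pBOO and fell by 1.96 with tolterodine against pBOO. Rapgef3, the cyclic AMP sensor EPAC1, was well above background on 3 of 3 pBOO arrays and on 0 of 3 sham arrays, at least 1.93-fold higher in pBOO. Adcy7, a cyclase, rose by 1.45 with tolterodine against pBOO, where it was well above background on 2 of 3 arrays. Akap5, which anchors protein kinase A near membrane receptors, rose by 2.27 (SE 0.41) in pBOO and was well above background on 2 of 3 sham arrays.

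Kcnma1 and Kcnmb1 encode the pore and a regulatory subunit of the large-conductance potassium channel, through which β-adrenoceptors hyperpolarise the detrusor. Kcnmb1 rose by 1.98 (SE 0.15, adjusted p = 4.1e-05, limma) in pBOO and fell by 1.43 with tolterodine against pBOO. The brightest Kcnma1 probe rose by 3.25 (SE 0.79, adjusted p = 0.0112, limma) in pBOO, with sham levels of -0.95, -4.50 and -4.24, so that sham array 1 was the high one here. It did not pass with tolterodine against pBOO, at 1.03. The other 2 Kcnma1 probes had lower mean levels with tolterodine than in pBOO (-4.36 against -2.57, and -4.91 against -4.06), so the probes of this gene disagreed on that comparison.

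Of the genes that supply or clear catecholamines, the oxidases Maoa and Maob rose by 1.64 and 1.18 in pBOO and fell by 1.29 and 0.86 with tolterodine against pBOO. Th, the rate-limiting enzyme of catecholamine synthesis, did not pass between pBOO and sham at 0.05 and rose by 0.78 (adjusted p = 0.0186, limma) with tolterodine against pBOO. Ddc, the next enzyme of the pathway, rose by 2.60 (SE 0.66, adjusted p = 0.0139, limma) in pBOO, with levels of -7.64, -4.46 and -5.24 in sham that were lowest on array 1, and it was well above background on 2 of 3 sham arrays.

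**Figure D4:**
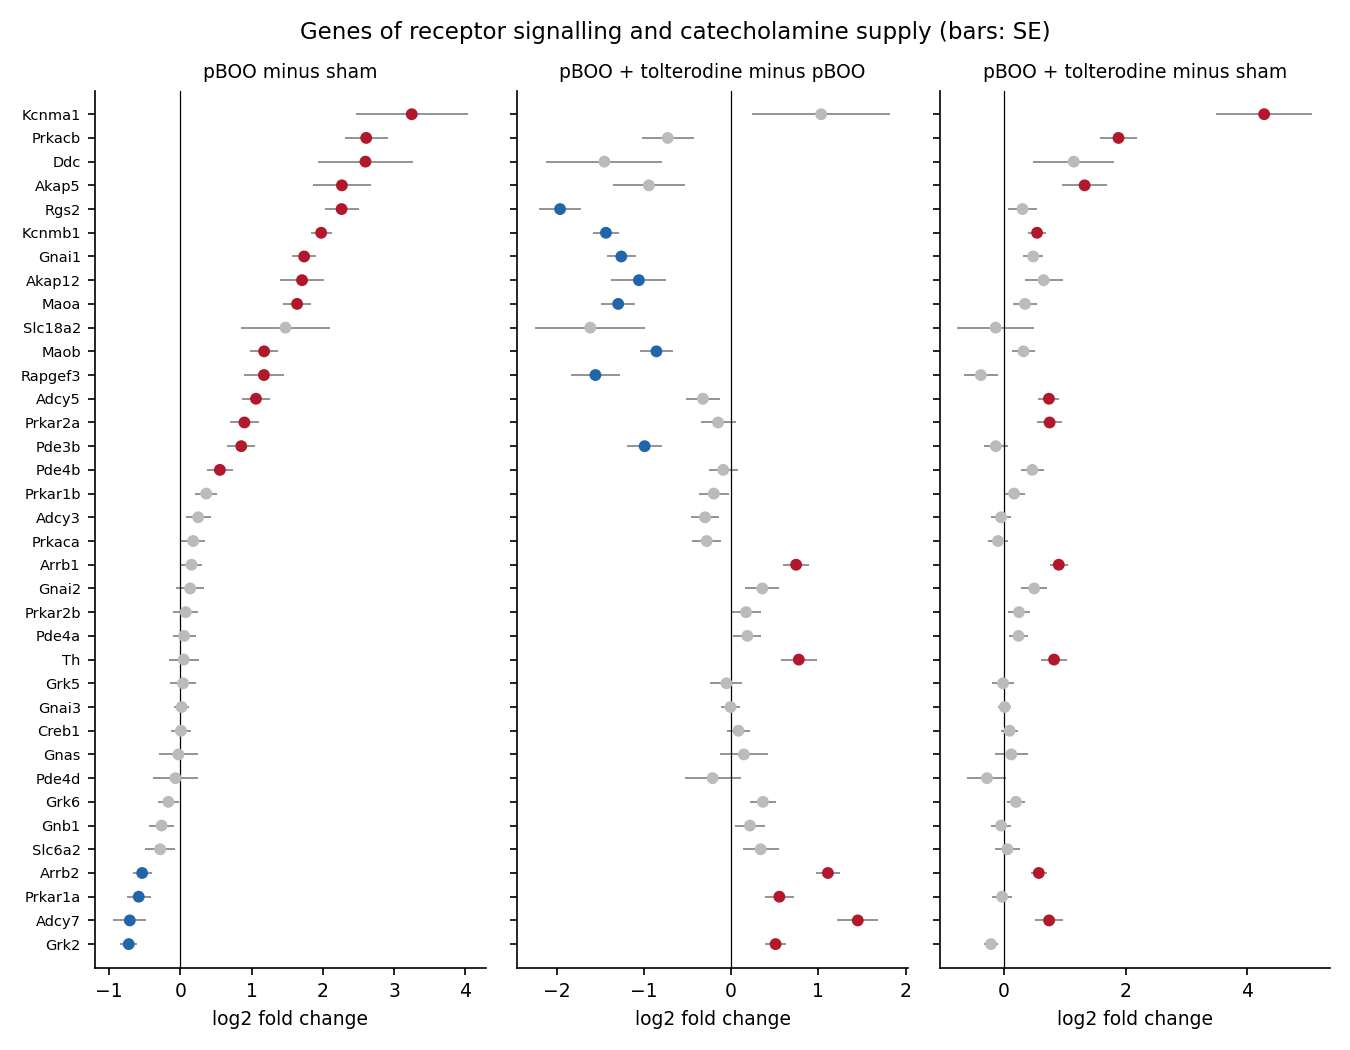
Log2 fold change with its SE (horizontal axis) of 36 of the 37 tested genes of receptor signalling and catecholamine supply (vertical axis, ordered by the pBOO minus sham change) in each comparison; red genes were higher and blue genes lower with an adjusted p below 0.05, grey genes did not pass. Kcnma1 and Prkacb lead the 15 genes that rose in pBOO, Grk2 has the largest fall in pBOO, and 0 of the 37 genes fell with tolterodine against sham.

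The receptors that oppose or share the detrusor with the β-adrenoceptors were measured on the same arrays. Chrm3, the muscarinic receptor that drives contraction and a target of tolterodine, had levels of -3.06, -2.46 and -2.61 in sham, -0.19, -0.82 and -0.38 in pBOO, and -1.92, -1.87 and -2.10 with tolterodine. It rose by 2.24 (SE 0.21, adjusted p = 0.000101, limma) in pBOO, was 2.82-fold lower (adjusted p = 0.000759, limma) with tolterodine against pBOO, and stayed 0.75 (adjusted p = 0.0302, limma) above sham with tolterodine. Chrm2, another muscarinic receptor, rose by 0.92 (SE 0.21, adjusted p = 0.00822, limma) in pBOO by its brightest probe. With tolterodine against pBOO that probe did not pass, at -0.03 (adjusted p = 0.909, limma). A dimmer Chrm2 probe, well above background on 0 of 3 sham arrays, had mean levels of -4.25 in pBOO and -4.93 with tolterodine. P2rx1, the ATP-gated channel of the detrusor, rose by 3.02 in pBOO and fell by 2.36 with tolterodine against pBOO. Adra1d, an α1-adrenoceptor, rose by 2.11 and fell by 1.33 in the same comparisons. Adra1a, another α1-adrenoceptor, did not pass between pBOO and sham at -0.11 and rose by 1.39 (adjusted p = 0.000223, limma) with tolterodine against pBOO. The Chrm3 level with tolterodine was above all 3 sham arrays.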

How the data were processed

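Total RNA of 9 rat bladders or pools was labelled with Cy3. The deposited processed signal is an intensity, background-subtracted and spatially detrended per the file headers, with no normalization between arrays; raw median signal and local background are also deposited intensities. The deposited flags are 0 or 1 codes. The file headers name Feature Extraction 11.0.1.1, the submitters' processing notes Agilent Feature Extraction 9.1. Here, log2 of the processed signal minus each array's 75th percentile was taken, spots flagged as non-uniform or population outliers were set to missing, and spots of a probe were averaged. Probes well above background on at least 3 of 9 arrays, with at least 2 unflagged arrays per group, were tested (20476 of 30367) in 1 limma fit over all arrays (R 4.3.3, limma 3.58.1), two-sided, with Benjamini-Hochberg adjustment and a threshold of 0.05. Accessions were named through RefSeq (GRCr8), and 18005 probes had 1 symbol. The brightest tested probe stood for a gene, so a brighter probe that the filter dropped was not used. The grid names another build, so no coordinates are given.

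Array upper quartiles ran from 523 to 1441 intensity units, 72.1% to 80.1% of spots were well above background, 4.66% to 6.31% were flagged and 0 were saturated. With 3 arrays per group precision is limited, and the median SE of a log2 change was 0.18. On simulated data with 100 probes changed by 1 and 100 by 2 log2 units between pBOO and sham, the fit recovered 47% and 86%, and 5 unchanged probes were called. The simulation changed only 200 of 20476 probes, with independent noise and no slide effect, whereas 40.9% of probes passed in the data. Its shares check the fit and do not carry over to these arrays. The members and gene lists were chosen with earlier results of these data known. Named are both members, the 5 genes most like each, Gnas, Grk2, Arrb1, Arrb2 and Prkaca, and up to 3 genes with the largest passing change per list and comparison; other genes named were chosen after their values were seen. Same-numbered arrays did not deviate together (r -0.08 to 0.17), so numbers do not pair samples. Alternatives were scaling, background, filters, slide, replicate block, exchanged names and leaving out each array. 1 gene of the lists enters the counts and is not reported here.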

Additional observations from a re-analysis of the deposited data

How the results depend on the processing

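For Adrb3, pBOO minus sham and tolterodine minus pBOO kept direction and call in the 12 and 11 settings other than exchanged names and single arrays left out (ranges 1.70 to 4.50 and -6.83 to -2.50). Many of these settings could not change the direction. The filters, flagged spots kept, 1 probe per gene, only the groups compared and the replicate block left both estimates at 2.60 and -3.97. In these only the SE and adjusted p could move. The 4.50, within slide 2 and with the fixed block, is 1 contrast with sham array 1 alone. Tolterodine minus sham passed with slide as a fixed block (-2.33), as a random block (-1.87) and within slide 1 (-2.33), where Adrb1 passed too (0.98, 0.82 and 0.98). For this comparison the fixed block and slide 1 are 1 contrast, without sham array 1 and tolterodine array 3. Adrb1, pBOO minus sham, turned negative with quantile scaling (-0.037) and normexp (-0.13). Leaving out each array gave Adrb1 -0.01 to 0.24 (pBOO minus sham; negative without pBOO 3, -0.012, and sham 2, -0.0060), 0.31 to 0.88 and 0.43 to 0.99, and Adrb3 1.65 to 3.16, -4.17 to -3.81 and -2.32 to -0.81, in the order of comparisons used in the report. With the names of sham and pBOO exchanged, pBOO minus sham was -2.60 for Adrb3, -0.11 for Adrb1 and -2.48 for their within-array difference, Adrb3 was -1.37 (not passed) for tolterodine minus pBOO and -3.97 for tolterodine minus sham, and these comparisons called 4904 and 7904 probes. The replicate block left Adrb3 at 2.60 (adjusted p = 0.0210, limma) and -3.97 (adjusted p = 0.00491, limma) and changed no call on Adrb1 or Adrb3; with it 7721, 7268 and 4241 probes were called.

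Probes called were 8382, 7904 and 4904 in the 3 comparisons; 4820, 4653 and 1376 with normexp, and 4693, 4564 and 2693 with 1 probe per gene, which tests fewer features. For tolterodine minus sham they were 8322 and 7850 with slide as a fixed or random block and 9904 within slide 1; pBOO minus sham within slide 2 called 4755. Leaving out each array gave 5695 to 9025, 5507 to 9128 and 2679 to 6842 probes. Signalling genes called for tolterodine minus sham, 10 of 37, were 6 with median scaling, 5 with quantile scaling, 3 with normexp, 5 with only the groups compared and 17 within slide 1; pBOO minus sham within slide 2 gave 13 in place of 20. Leaving out each array gave 14 to 20, 12 to 21 and 5 to 13. The cause was not tested. Weak signal limits Adrb1 on all arrays and Adrb3 on sham array 1 and the tolterodine arrays.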
